A study of Drosophila melanogaster with 6 samples.

Results

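Respiratory complex I is the NADH dehydrogenase of the mitochondrial inner membrane, and most of its nuclear genes in Drosophila melanogaster carry symbols that begin with ND-. All rows of the deposited table with such a symbol were taken as members, 37 of 14138 genes. Of these, 32 passed the filter for testing, a level of at least 5 CPM (reads per 1000000 reads assigned to the listed genes) in at least 3 libraries. Symbols were the only criterion, so the members hold subunits of the enzyme and also 4 paralogs and ND-MLRQ, whose human counterpart, NDUFA4, is placed in complex IV.

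The samples were olfactory projection neurons, the relay neurons that carry odour signals from the antennal lobe to the mushroom body and lateral horn. The adult group held 3 libraries from flies aged 5 days, and the development group held 3 libraries from pupae at 36 h after puparium formation. No treatment was given to either group, and both came from cells bearing a GFP marker that were sorted by flow cytometry, about 2000 cells to a library, and prepared with SMART-seq2. The sources used here do not give the genotype, the transgene that drives GFP or the sex of the flies. The labels do not say whether libraries of a group came from separate sorts or animals, and the p-values below therefore rest on library-to-library spread that may be technical only.

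Complex I is L-shaped. Its peripheral arm stands in the matrix, where the N module oxidises NADH at a flavin and passes electrons along iron-sulfur clusters to the Q module, which reduces ubiquinone. The membrane arm, split here into a proximal and a distal part, pumps protons, and its central subunits are encoded in mitochondrial DNA. A small core of subunits shared with bacteria carries out catalysis, and the accessory subunits around it support assembly, stability and regulation. In neurons, respiration through this chain supplies most of the ATP that ion pumping and synaptic transmission consume. The placing of each fly subunit below follows its mammalian counterpart, except for ND-ACP, whose counterpart sits in both arms.

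Recovered reads, obtained because low CPM values are whole multiples of 1 step per library, numbered 32764616 to 42217764 in adult libraries and 18602612 to 34542641 in development libraries. The 8 genes listed for projection neurons, the most abundant being nSyb, were detected in every library and summed to 3818.2 ± 163.0 CPM in adult and 2503.6 ± 579.1 CPM in development (SD, n = 3 each; 3 higher, 3 lower, 2 not past). The 3 higher genes were ChAT, VAChT and nSyb, general to cholinergic or all neurons, with log2 fold changes of 3.69, 1.54 and 0.81. The 3 lower ones were the transcription factor genes vvl, Oaz and C15, at -0.80, -0.64 and -0.38, while acj6 and elav did not pass, at -0.21 and -0.04. Markers of other cells were present too, and their part in the results below was not tested. Summed levels of 8 glial genes were 479.7 to 625.7 CPM in adult and 305.2 to 347.2 CPM in development. Of 6 tested, 2 were higher (Gs2 and alrm) and 2 lower (nrv2 and wrapper). Gs2 was the most abundant in adult, at a mean of 333.5 CPM, and nrv2 in development, at 243.3 CPM. The defining glial gene repo was at 0.811 to 1.34 CPM in adult and 0.753 to 0.931 CPM in development. Genes of neurons with other transmitters summed to 245.0 to 519.4 CPM in adult and 48.2 to 77.8 CPM in development. Of these, 3 of 5 tested were higher (Gad1, VGAT and Vmat). Vmat was the most abundant in adult and VGlut in development. Photoreceptor genes, nearly all norpA, summed to 953.1 to 979.4 CPM in adult and 275.0 to 291.1 CPM in development (3 of 3 tested higher). Besides norpA, the tested genes were Arr2 and trp, with log2 fold changes of 4.62 and 2.84. Arr2 averaged 28.4 CPM in adult and 0.207 CPM in development, and trp 10.7 and 0.631 CPM. The photoreceptor genes ninaE, ninaC, chp and inaD, below the filter, averaged 2.07, 1.51, 1.45 and 0.246 CPM in adult. In development they averaged 0.0538, 0.227, 0.655 and 0.987 CPM. Olfactory receptor neuron genes summed to 23.6 to 37.7 CPM in adult and 2.00 to 3.95 CPM in development (1 of 1 higher, Orco), and fat body genes to 54.9 to 76.9 CPM in adult and 43.7 to 69.8 CPM in development (3 of 5 higher, 2 lower; Yp3 the most abundant in adult and Fbp1 in development). Lower sums in adult were those of hemocyte, Kenyon cell and dividing cell genes. Hemocyte genes, mostly Pxn, summed to 314.3 to 338.6 CPM in adult and 415.1 to 529.9 CPM in development (1 of 2 higher, 1 lower). The hemocyte genes Hml, NimC1 and srp, below the filter, averaged 0.263, 0.0282 and 0.311 CPM in adult. In development they averaged 0.601, 0.00965 and 0.275 CPM. Kenyon cell genes, mostly mamo, summed to 329.2 to 379.2 CPM and 671.9 to 802.0 CPM (1 of 2 lower). The other genes ey, prt, sNPF and Dop1R2 had higher means in adult, at 2.65, 4.96, 5.58 and 26.25 CPM. Their development means were 2.29, 1.96, 1.36 and 19.46 CPM (Dop1R2 tested, not past). Genes of dividing cells, mostly PCNA, summed to 4.18 to 8.81 CPM and 12.6 to 17.7 CPM (1 of 1 lower). The 10 muscle genes, markers of a tissue rich in mitochondria, summed to 2.72 to 8.29 CPM in adult and 10.1 to 11.5 CPM in development, and none reached the filter (bt the most abundant in adult and Mlc2 in development). In sorted bulk samples fewer cells of a type and less RNA per cell cannot be told apart.

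Most tested complex I genes were higher in adult than in developing projection neurons. The nuclear core subunits had a larger median fold change than the accessory subunits, a difference that was not tested. Of 32 tested members 26 were higher, 2 were lower and 4 did not pass the test (limma on log2(CPM + 1), adjusted p under 0.05 over all 6814 genes tested). Among all genes tested 65.1% passed in either direction, 27.2% being higher in adult and 37.9% lower. The median log2 fold change, adult minus development, was 0.63 over tested members and -0.15 over all genes tested. With median of ratios scaling, which moved the median of all genes tested to -0.004, that of the members was 0.79. In 26 members every adult library lay above every development library, a separation that 28.8% of all tested genes showed, and in 2 members every adult library lay below, as in 40.2% of all tested genes. Changes of at least 2-fold upward numbered 7 of 32 members, against 13.4% of all tested genes.

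All members together took 1.29%, 1.25% and 1.30% of CPM in the adult libraries, against 0.711%, 0.777% and 0.807% in the development libraries. The means were 1.28% ± 0.0285 in adult and 0.765% ± 0.0487 in development (SD, n = 3 each). Adult libraries thus held 1.67 times the development share, and the groups did not overlap.

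**Figure D1:**
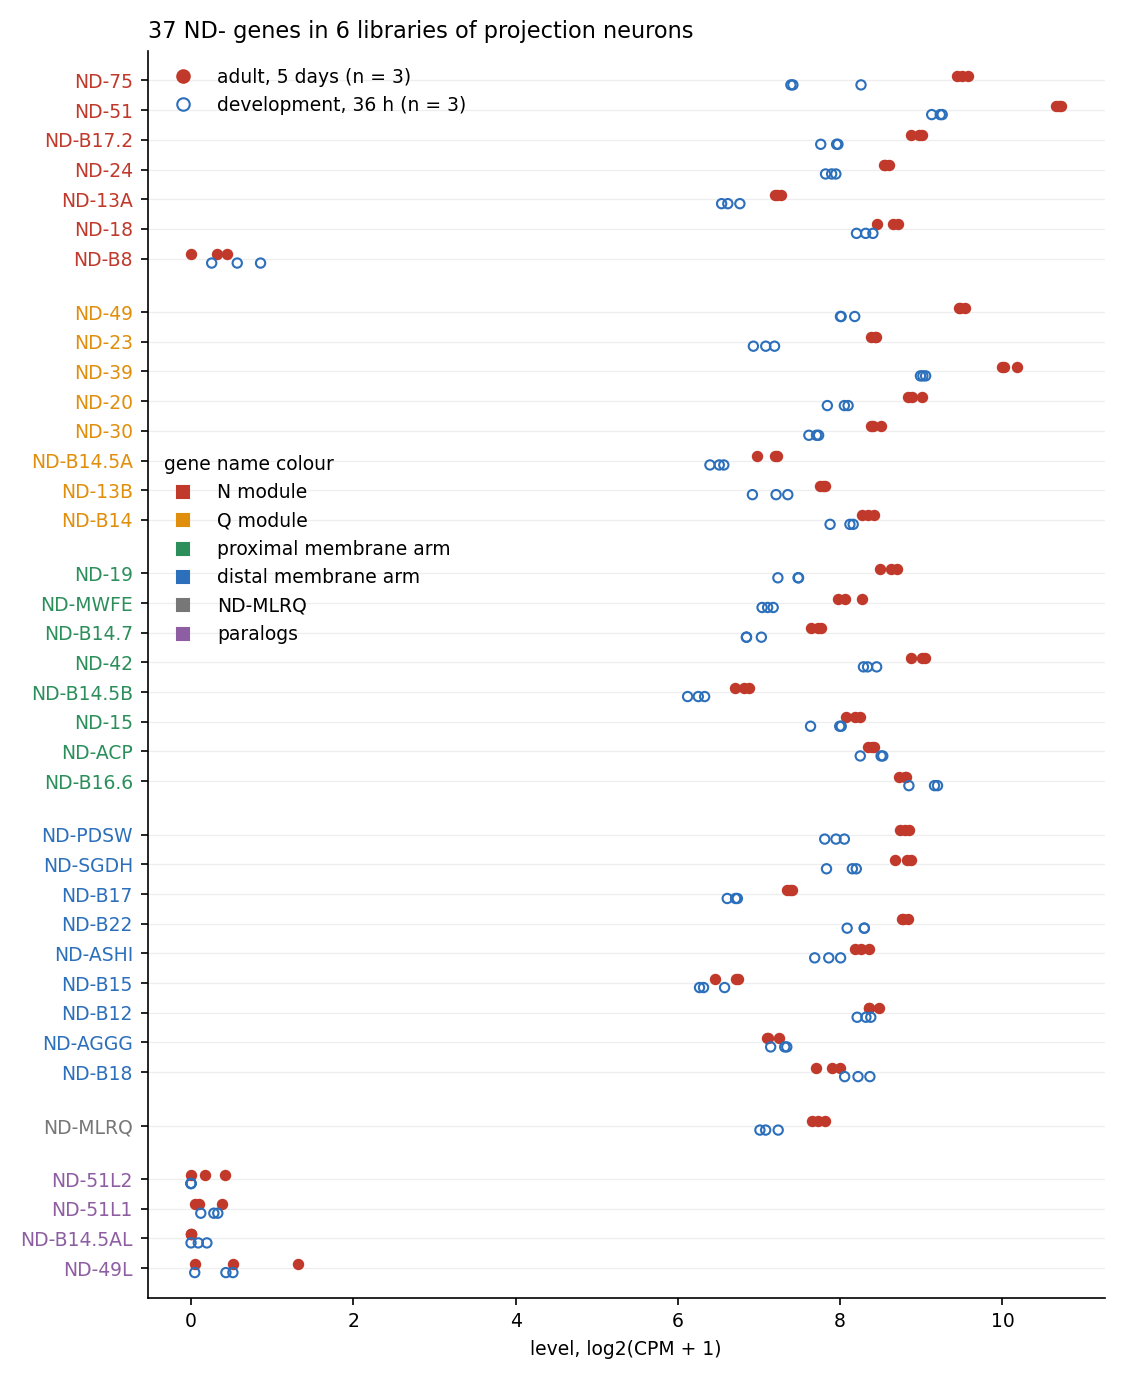
Level of each of the 37 genes on a log2(CPM + 1) axis, with a filled point for each adult library and an open point for each development library, grouped by module. Most adult points lie right of the development points, while ND-B8 and the 4 paralogs lie near 0 in both groups.

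The nuclear core subunits, 7 in number, were all higher in adult. Their log2 fold changes ran from 0.68 to 1.81 with a median of 1.35, and 4 of them exceeded a 2-fold change. Summed over the 7 genes, the level was 4641.8 ± 102.3 CPM in adult and 1901.6 ± 31.6 CPM in development (SD, n = 3 each), a ratio of 2.44. The 24 tested accessory subunits summed to 7943 ± 310.9 CPM in adult and 5609 ± 462.7 CPM in development, a ratio of 1.42, with a median log2 fold change of 0.58. Core genes therefore made up 35% to 37.5% of member CPM in adult libraries and 24% to 26.6% in development libraries.

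ND-75 encodes the largest subunit, which holds iron-sulfur clusters of the N module. It had 690.9, 723 and 760.7 CPM in adult, against 305, 167.1 and 170.0 CPM in development. On the log2 scale its rise of 1.81 ± 0.18 (SE; adjusted p = 1.041e-06, limma) was the largest of the members. Development replicate 1 stood apart from its group here, and without it the log2 fold change was 2.10 (limma, adjusted p = 8.052e-10). The gene lies on chromosome X, 8248651 to 8251687, on the minus strand of BDGP6.54.

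ND-51 encodes the subunit that binds NADH and the flavin where electrons enter. Its levels were 1623, 1692 and 1656 CPM in adult, against 558.7, 601.1 and 611.2 CPM in development. The adult libraries lay close together and far above the development libraries, with a log2 fold change of 1.49 ± 0.08 (SE; adjusted p = 4.340e-09, limma). ND-51 lies on chromosome 2L, 6060842 to 6062757, minus strand. ND-24, the small flavoprotein partner of ND-51 with an iron-sulfur cluster of its own, moved less. It had 373.8, 370.1 and 388 CPM in adult, against 225, 245.8 and 237.1 CPM in development, a log2 fold change of 0.68 ± 0.09 (SE; adjusted p = 2.736e-05, limma).

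In the Q module ND-49, on the small chromosome 4 (568296 to 571554, minus strand), forms part of the ubiquinone pocket. It had 703, 740.9 and 709.8 CPM in adult, against 255.7, 257.2 and 289 CPM in development. ND-23, which holds a pair of iron-sulfur clusters on the path to quinone, had 343.2, 347.1 and 333.1 CPM in adult, against 121, 134.6 and 145.2 CPM in development. Both rose by over 2-fold without overlap of the groups, by 1.42 ± 0.09 for ND-49 and 1.35 ± 0.11 for ND-23 on the log2 scale (SE; limma, adjusted p = 1.832e-08 and 9.671e-08). ND-20, which carries the last cluster before quinone, had 456.1, 471.7 and 513.1 CPM in adult, against 228.5, 264.4 and 273 CPM in development. ND-30 had 337, 332.9 and 361.3 CPM in adult, against 195, 208.2 and 212 CPM in development. These 2 core genes rose by 0.91 ± 0.10 and 0.74 ± 0.10 on the log2 scale (SE; limma, adjusted p = 3.636e-06 and 1.481e-05), again with no overlap.

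**Figure D2:**
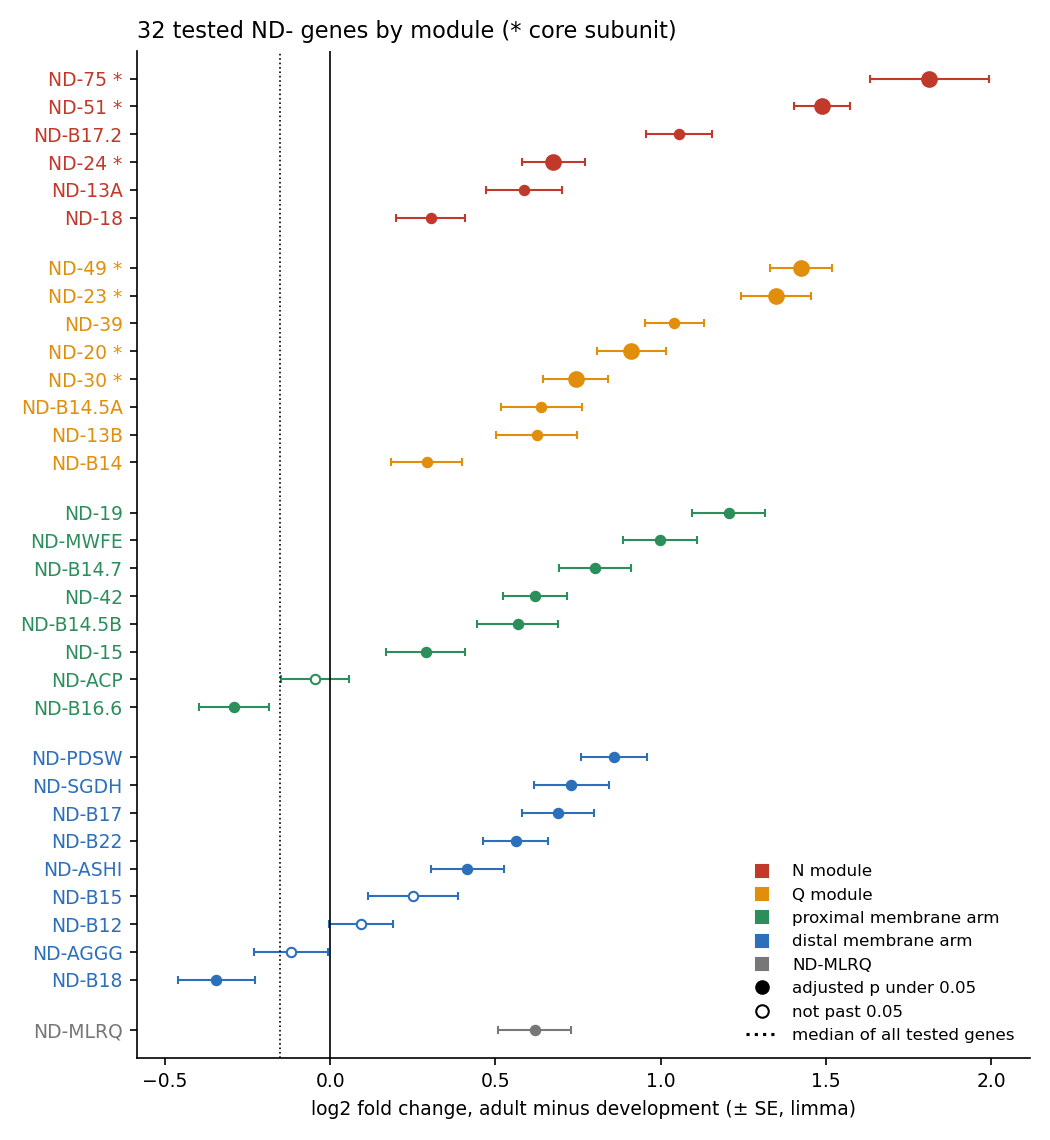
Log2 fold change, adult minus development, with SE from limma, for the 32 tested members grouped by module; large points and asterisks mark the 7 nuclear core subunits, open points did not pass the test, and the dotted line is the median of all tested genes. All core subunits lie at 0.68 or above, and the members below 0 are ND-B18, ND-B16.6, ND-AGGG and ND-ACP.

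By module, all 6 tested members of the N module and all 8 of the Q module were higher in adult, with medians of 0.86 and 0.83 on the log2 scale. In the proximal membrane arm 6 of 8 were higher and 1 lower (median 0.59), and in the distal membrane arm 5 of 9 were higher and 1 lower (median 0.41). Of the 4 members that did not pass, 3 were in the distal arm, and the other was ND-ACP, counted here with the proximal arm although its mammalian counterpart sits in both arms of the enzyme. Summed CPM in adult was 2.24 times that in development for the N module and 1.94 times for the Q module, against 1.31 times for each part of the membrane arm. No test was made of the difference between modules.

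Accessory subunits with the largest changes came from 3 different modules. ND-19, a cysteine-rich subunit of the proximal arm, had 394.7, 359.3 and 414.1 CPM in adult, against 149.4, 178.5 and 177.7 CPM in development, a log2 fold change of 1.21 ± 0.11 (SE; adjusted p = 4.142e-07, limma). ND-B17.2, of the N module, had 514, 466.4 and 503 CPM in adult, against 215.9, 250.2 and 247.4 CPM in development, a log2 fold change of 1.05 ± 0.10 (limma, adjusted p = 6.325e-07). ND-39, of the Q module, binds a nicotinamide nucleotide in mammals; it had 1157.9, 1015.2 and 1036.8 CPM in adult, against 517.9, 507.3 and 530.4 CPM in development, a log2 fold change of 1.04 ± 0.09 (limma, adjusted p = 2.293e-07). None of the 3 genes had a development library within the adult range.

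At the other end, ND-B16.6 and ND-B18 were lower in adult. ND-B16.6, whose human counterpart NDUFA13 is also known as GRIM-19, had 449.5, 444.2 and 422 CPM in adult, against 459.6, 572.3 and 587.2 CPM in development. ND-B18, of the distal arm, had 255.2, 207.2 and 238.8 CPM in adult, against 265.1, 297.2 and 329.1 CPM in development. The groups did not overlap for either gene, but the nearest libraries lay close together. The log2 fold changes were -0.29 ± 0.11 for ND-B16.6 and -0.34 ± 0.12 for ND-B18 (SE; limma, adjusted p = 0.0282 and 0.0184). Both calls ended with median of ratios scaling, at -0.14 and -0.19 (limma, adjusted p = 0.2833 and 0.1674), and without adult replicate 2 (0.0622 and 0.0992) or development replicate 3 (0.12 and 0.0899). ND-B16.6 also lost its call without adult replicate 3 (0.0913) and without development replicate 2 (0.1106), and 17.5% of its exonic bases overlap CG3847 on the opposite strand.

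The 4 members that did not pass were ND-ACP, ND-AGGG, ND-B12 and ND-B15. ND-ACP is the mitochondrial acyl carrier protein, which serves fatty acid synthesis as well as complex I. It had 333.7, 323.1 and 340.1 CPM in adult, against 303, 367.5 and 362.2 CPM in development, a log2 fold change of -0.05 ± 0.10 (SE; adjusted p = 0.7143, limma). ND-AGGG had 150.3, 136.6 and 136.7 CPM in adult, against 140.4, 158.5 and 161.3 CPM in development, with a log2 fold change of -0.12 ± 0.11. Both of these signs turned positive with median of ratios scaling, at 0.11 and 0.04, without passing the test. ND-B12 had 326.6, 325.9 and 355.5 CPM in adult, against 295, 318.1 and 331.6 CPM in development, a log2 fold change of 0.09 ± 0.10. ND-B15 had 104.2, 86.6 and 106 CPM in adult, against 76, 78.7 and 94.4 CPM in development, a log2 fold change of 0.25 ± 0.14. The groups overlapped for all 4 genes, and with median of ratios scaling ND-B12 and ND-B15 passed as higher (limma, adjusted p = 0.0379 and 0.0186).

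Between these ends lay small rises with adjusted p near the threshold. ND-15, an intermembrane-space subunit, had 303.4, 268.8 and 290.0 CPM in adult, against 197.8, 257.4 and 254.1 CPM in development (log2 fold change 0.29 ± 0.12, SE; limma, adjusted p = 0.0462). ND-B14, a Q-module subunit whose mammalian counterpart binds acyl carrier protein, had 324.1, 307.5 and 341.1 CPM in adult, against 233.9, 277.3 and 285.2 CPM in development (0.29 ± 0.11; limma, adjusted p = 0.0277). ND-18, an accessory subunit of the N module, had 420.2, 350.6 and 402.5 CPM in adult, against 293.4, 317.4 and 337.7 CPM in development, with a log2 fold change of 0.30 ± 0.10 (SE; adjusted p = 0.0204, limma). The groups did not overlap for these 3 genes, but their nearest libraries lay close together. The call for ND-15 ended without adult replicate 1, 2 or 3 (limma, adjusted p = 0.136, 0.0532 and 0.1035), without development replicate 1 (0.1129, the log2 fold change then being 0.17) and with the replicate number as a block (0.0511). The call for ND-18 ended without adult replicate 1 or 3 or development replicate 2 (0.0871, 0.0684 and 0.0504), and that for ND-B14 without adult replicate 1 or 3 (0.0629 and 0.098).

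The other 13 tested members rose by 0.42 to 1.0 on the log2 scale without overlap of the groups. In the peripheral arm these were ND-13A, an N-module subunit with a zinc site, ND-13B and ND-B14.5A. In the proximal membrane arm they were ND-MWFE, ND-B14.7, ND-B14.5B and ND-42, whose fold resembles that of nucleoside kinases. In the distal membrane arm they were ND-PDSW, ND-SGDH, ND-B17, ND-ASHI and ND-B22, which like ND-B14 belongs to the LYR-motif proteins that bind acyl carrier protein. ND-MLRQ rose by 0.62 ± 0.11, within the range of the complex I accessory subunits. ND-MWFE, a small membrane subunit, led these 13 genes with 308.5, 251 and 266.1 CPM in adult, against 130.4, 136.8 and 143.5 CPM in development. Reads for ND-MWFE are uncertain, since 15.2% of its exonic bases are shared with Nrk on the same strand and 19.8% overlap TppII on the opposite one. Exons of 16 of the 37 members overlap a gene on the opposite strand, over 10% of their length in 7 members, and the sources used here do not say whether counting used strand. Among the 16 tested members with no exonic overlap, 14 were higher in adult, against 26 of all 32 tested members and 27.2% of all tested genes. The share among all tested genes without overlap was not computed.

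Levels per length place the subunits of this one enzyme on a common scale. In adult, CPM per kb of exon ran from 145.2 for ND-B14.5B to 1042 for ND-51. In development it ran from 81.2 for ND-75 to 519.6 for ND-B12. The highest level per length was 6.65 to 7.83 times the lowest in adult libraries and 5.41 to 8.48 times in development libraries. The SD of log2 CPM per kb across the 32 genes was 0.689 to 0.718 in adult and 0.654 to 0.739 in development, so the spread between subunits overlapped between the groups. The order changed: ND-51 was at rank 1 in adult and rank 6 in development, ND-49 at rank 11 and rank 23, ND-23 at rank 12 and rank 26, and ND-75 at rank 23 and rank 32. ND-B16.6 was at rank 19 in adult and rank 3 in development, and ND-B18 at rank 27 and rank 12. Across the 32 genes, which are not independent replicates, log2 CPM per kb in adult and development had a Pearson r of 0.739 and a Spearman rho of 0.729.

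**Figure D3:**
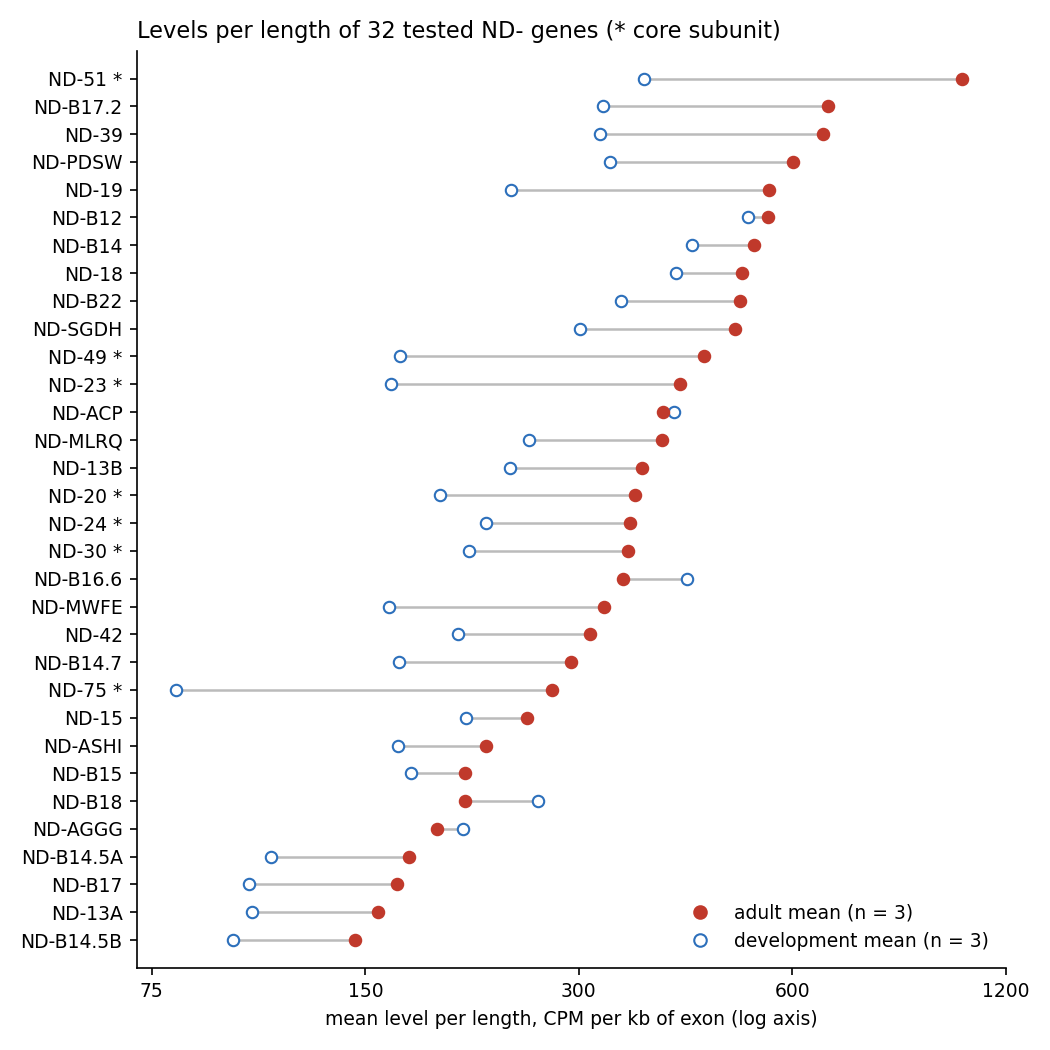
Mean level per length, in CPM per kb of exon on a log axis, of the 32 tested members in adult (filled) and development (open), ordered by the adult value; asterisks mark core subunits. ND-51 leads in adult at 1042 CPM per kb, and ND-75 has the longest line, with 275.2 in adult and 81.2 in development.

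ND-B8 and the paralogs had few reads. ND-B8 encodes an accessory subunit of the N module, and it had 15, 8 and 0 recovered reads in adult libraries and 6, 28 and 9 in development libraries. Per length its mean was 0.434 CPM per kb in adult and 1.08 CPM per kb in development, while the lowest of the other 6 N-module genes was ND-13A in adult, at 156.1 CPM per kb, and ND-75 in development, at 81.2 CPM per kb. The row lies on chromosome 2L, 4454626 to 4455207, with 460 exonic bases, of which 15.4% overlap Gs1l on the opposite strand. The sources used here do not say how reads that match several genes were counted.

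The paralogs ND-49L, ND-51L1, ND-51L2 and ND-B14.5AL, named as copies of ND-49, ND-51 and ND-B14.5A, did not reach the filter. ND-49L had 18, 1 and 61 reads in adult and 1, 12 and 8 reads in development, which left it at 1.5 CPM or less. ND-51L1 had 13, 1 and 3 reads in adult and 8, 3 and 4 reads in development. ND-51L2 had 0, 11 and 5 reads in adult and 0 in each development library. ND-B14.5AL had 0 reads in each adult library and 2, 5 and 0 reads in development. The 3 reads that a count of 0 allows correspond to 0.0711 to 0.0916 CPM in adult libraries and 0.0868 to 0.1613 CPM in development libraries, counting error only. Levels of the paralogs overlapped between the groups, and none averaged more than 0.384 CPM per kb in adult or 0.159 CPM per kb in development, the values of ND-49L.

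Variation between libraries of a group was shared by many members. In development replicate 1, 28 of 32 tested members lay below both other development libraries, with a median difference from the mean of those libraries of -0.17 on the log2 scale, against -0.04 for all tested genes. ND-75 was the only tested member above both, by 0.85 over their mean. In adult replicate 2, 22 of 32 lay below both other adult libraries (median -0.07, against -0.01 for all tested genes). Without development replicate 1, 25 members were higher and 2 lower, and without adult replicate 2, 25 were higher and 0 lower.

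Fold change rose weakly with gene length over all tested genes, and among the accessory subunits it showed little relation to length. Over the 6795 tested genes with an annotated length, log2 fold change and log2 exonic length had a Pearson r of 0.171 and a Spearman rho of 0.215. Over the 32 members the values were 0.381 and 0.25, and 0.22 and 0.175 without ND-75, which is the longest. Over the 24 accessory subunits they were -0.035 and -0.074. Below 700 exonic bases 5 members had a median log2 fold change of 0.29, against -0.45 for the 303 tested genes of that length. From 700 to 1000 bases, 16 members had a median of 0.71, against -0.44 for 528 genes. From 1000 to 1500 bases 6 members had a median of 0.35, against -0.38 for 1034 genes, and from 1500 to 3000 bases 5 members had 1.42, against -0.25 for 2384 genes. Of the core genes, ND-23, ND-30, ND-24 and ND-20 have 819, 976, 1064 and 1336 exonic bases and rose by 1.35, 0.74, 0.68 and 0.91 on the log2 scale, while ND-51, ND-49 and ND-75 have 1590, 1593 and 2634 bases and rose by 1.49, 1.42 and 1.81. The part of length in the difference between core and accessory subunits was not tested.

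**Figure D4:**
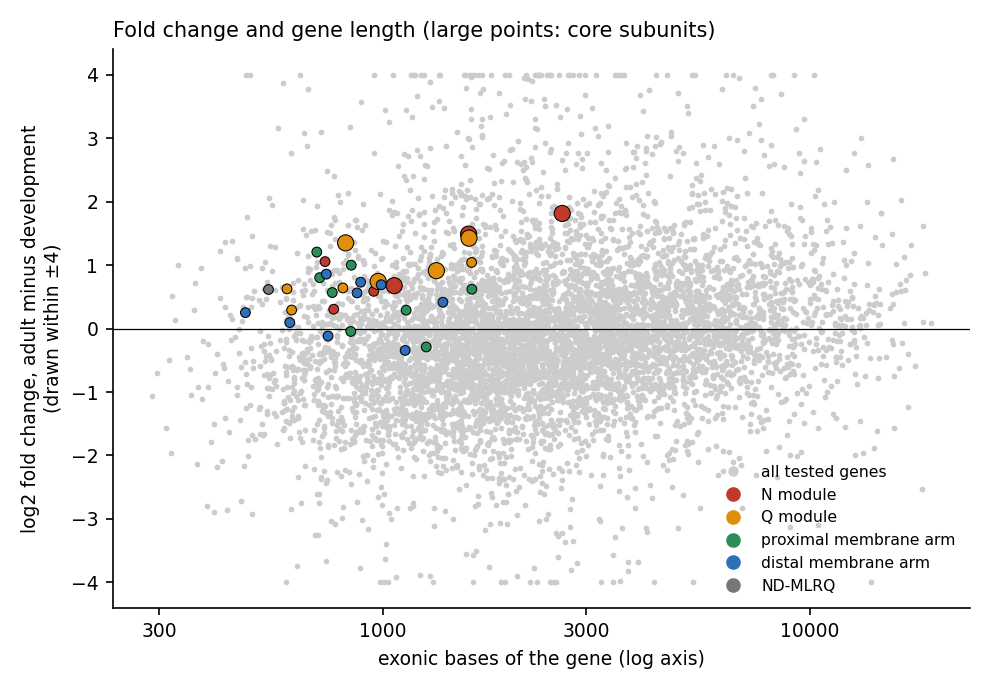
Log2 fold change, adult minus development, against exonic bases on a log axis for tested genes (grey; the few longest and shortest are outside the axis, and the largest changes are drawn at its edge) and for the 32 tested members (coloured by module, core subunits large). Members lie mostly above the grey points of the same length.

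By chromosome the counts of members were as follows. Over all chromosomes together, 27.2% of tested genes were higher and 37.9% lower. The share of all tested genes on each chromosome was not computed, and no difference between chromosomes was tested. On chromosome X 6 of 8 tested members were higher and 2 lower (median log2 fold change 0.53). The 2 lower ones were ND-B16.6 and ND-B18, whose calls ended with median of ratios scaling, and ND-75 lies there too. On 2L 8 of 8 were higher (median 0.64), on 3L 5 of 7 (0.62), on 2R 4 of 6 (0.55), on 3R 2 of 2 (0.98) and on chromosome 4 the single member, ND-49.

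The 7 core subunits encoded in mitochondrial DNA were listed at low levels. mt:ND4 had 14.1, 24.3 and 22.2 CPM in adult, against 12.5, 13.1 and 9.73 CPM in development, and mt:ND1 had 8.08, 11.5 and 10.6 CPM in adult, against 6.26, 6.75 and 4.78 CPM in development. Both passed as higher, with log2 fold changes of 0.70 ± 0.24 and 0.67 ± 0.25 (SE; limma, adjusted p = 0.0188 and 0.0312). Neither passed without adult replicate 2 (0.0814 and 0.0997), without adult replicate 3 (0.0601 and 0.064) or without development replicate 3 (0.0789 and 0.1175), and mt:ND1 did not pass without development replicate 1 (0.0512). mt:ND5 had 3.62, 5.40 and 6.5 CPM in adult, against 6.71, 6.14 and 4.57 CPM in development, and did not pass (limma, adjusted p = 0.6582). mt:ND2, mt:ND3 and mt:ND6 stayed below 1 CPM in every library, and mt:ND4L had 1 read in all 6 libraries together. Per length, mt:ND4 was at 15.1 CPM per kb in adult and 8.8 in development, while mt:CoI, of complex IV on the same genome, was at 2616.3 in adult and 1507.9 in development.

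Assembly factors build complex I but are not part of the finished enzyme. Of 7 tested from the list, 4 were higher in adult, 0 lower and 3 did not pass (median log2 fold change 0.63). The share higher was 57.1%, against 27.2% of all tested genes. CG11722, listed by RefSeq under the synonym dNDUFAF4, had 84.6, 86.8 and 85.2 CPM in adult, against 11.8, 18.3 and 16.7 CPM in development. Its log2 fold change of 2.4 ± 0.18 (SE; adjusted p = 5.748e-08, limma) exceeded that of every member. The gene sicily, whose RefSeq synonym is dNDUFAF6, had 62.4, 58.4 and 52.9 CPM in adult, against 22.1, 24.8 and 28.9 CPM in development. CG17726 had 36.1, 29.1 and 48.4 CPM in adult, against 12.4, 7.35 and 10.2 CPM in development. The groups did not overlap for these 3 genes. CIA30, the counterpart of NDUFAF1, rose by 0.63 ± 0.19 on the log2 scale (SE; limma, adjusted p = 0.0096), and ECSIT had 39.3, 34.3 and 42.6 CPM in adult, against 39.6, 48.3 and 46 CPM in development (limma, adjusted p = 0.279).

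NP15.6, the counterpart of the distal-arm subunit NDUFB11, has a symbol outside the ND- naming. It had 237.9, 236 and 248.2 CPM in adult, against 243.9, 285.6 and 287.6 CPM in development, and did not pass (log2 fold change -0.17 ± 0.10, SE; limma, adjusted p = 0.1548). Without development replicate 1 it passed as lower, at -0.25 (limma, adjusted p = 0.0184).

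Set beside the nuclear genes of the other respiratory complexes, the median over all tested members (0.63) lay between those of complexes III and IV. Taken apart, the complex I core (1.35) lay between complexes II and III, and the accessory subunits (0.58) between complexes III and IV. The other complexes were not split in this way. In complex II, 4 of 4 tested genes were higher in adult, with a median log2 fold change of 1.65. In complex III 8 of 9 were higher (median 1.0) and in complex IV 6 of 9 (0.43). In complex V, the ATP synthase, 5 of 13 were higher (median 0.14), and no gene was lower in complexes II to V. The share higher was 38.5% in complex V, against 27.2% of all tested genes, while 37.9% of all tested genes were lower. The range in complex II ran from SdhC at 1.01 to SdhB at 1.79, and in complex V from ATPsyndelta at -0.14 to ATPsynB at 0.49. Of the exonic bases of ATPsyndelta, 35.6% overlap CG2962 on the opposite strand. In complex III UQCR-11 was at -0.06, and the paralog Cyt-c1L, counted among the 9 tested genes, was at 3.88. Cyt-c1L had 18, 14.4 and 17.4 CPM in adult, against 0.257, 0.347 and 0 CPM in development. In complex IV the ends were COX7A at -0.14 and COX6B at 0.74. The differences between complexes were not tested. Mitochondrial ribosomal protein genes, whose products translate the mitochondrial subunits, were higher in 27 and lower in 11 of 72 cases. These were 37.5% and 15.3%, against 27.2% and 37.9% of all tested genes. Their median was 0.21, with a range from mRpL44 at -1.29 to mRpS5 at 1.42.

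**Figure D5:**
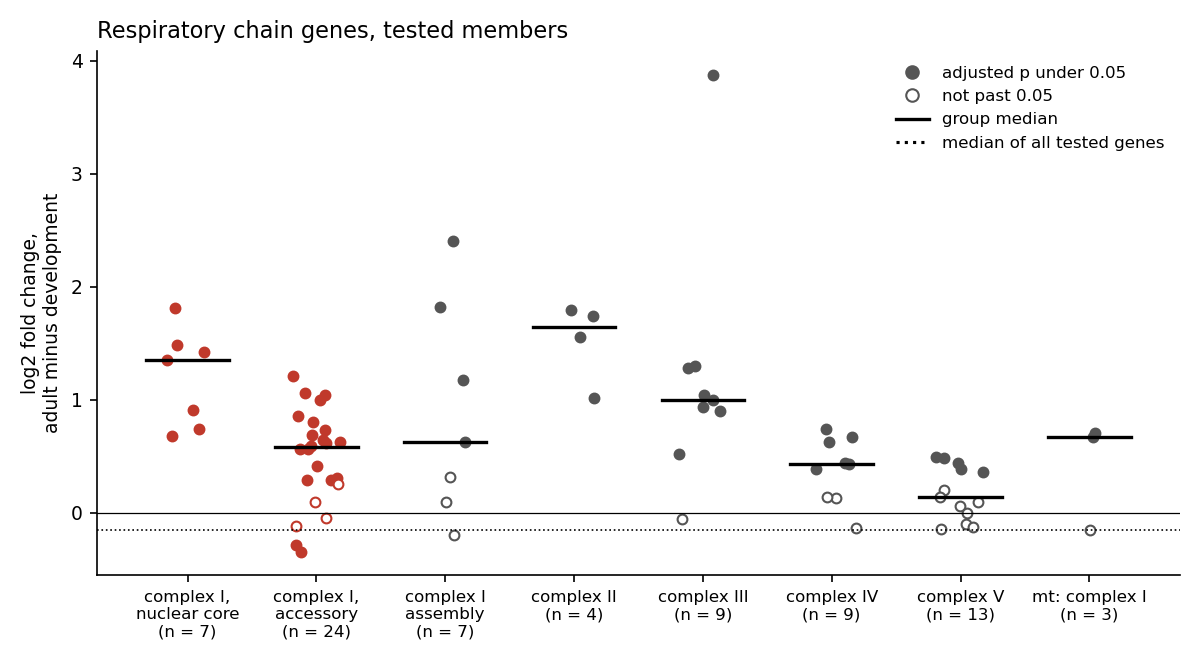
Log2 fold change, adult minus development, of each tested gene of complex I (red) and of assembly factors, complexes II to V and the mitochondrially encoded complex I genes (grey); bars are medians, open points did not pass the test, and the dotted line is the median of all tested genes. Medians run from 1.65 in complex II to 0.14 in complex V, with the complex I core at 1.35.

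Of 9 tested genes that regulate mitochondrial gene expression 2 were higher (22.2%, against 27.2% of all tested genes), 3 were lower (33.3%, against 37.9%) and 4 did not pass. Their shares were thus near those of all tested genes, and the median log2 fold change was -0.08. The lowest was srl, the fly PGC-1 counterpart, with 9.78, 5.46 and 1.21 CPM in adult, against 9.15, 14.68 and 10.9 CPM in development, where the groups overlapped (log2 fold change -1.21 ± 0.45, SE; limma, adjusted p = 0.0302). The highest was mtRNApol, the mitochondrial RNA polymerase gene, with 55.1, 90.9 and 67 CPM in adult, against 68.1, 28.5 and 26.5 CPM in development, where replicate 1 lay within the adult range (0.88 ± 0.29; limma, adjusted p = 0.0172). The srl gene did not pass without adult replicate 3 (-0.57, limma, adjusted p = 0.1152), development replicate 2 (0.098) or development replicate 3 (0.0615), nor with median of ratios scaling (0.0522). The mtRNApol call ended without adult replicate 2 (limma, adjusted p = 0.0726), development replicate 2 (0.072) or development replicate 3 (0.0863), and without development replicate 1 the log2 fold change was 1.31. The other called genes of the list did not overlap between the groups. They were crc at -1.16 ± 0.12 (limma, adjusted p = 1.896e-06), mtTFB2 at -0.72 ± 0.17 (adjusted p = 0.002) and Ets97D at 0.62 ± 0.20 (adjusted p = 0.0163). Reads for crc are uncertain, since 73.5% of its exonic bases are shared with CG46314 on the same strand. The calls for crc and mtTFB2 held with each library left out, and that for Ets97D ended without adult replicate 1 (limma, adjusted p = 0.0647), adult replicate 2 (0.0666) or development replicate 3 (0.0687).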

How the data were processed

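Bulk RNA-seq of sorted olfactory projection neurons was available as 1 deposited table of 14139 rows by 6 libraries. Its values are log2(CPM + 1) as deposited by the authors, where CPM sums to 1000000 over the listed genes of each library. STAR 2.4.2a and HTSeq 0.7.1 are named, without their roles, per the submitters' processing notes. The sources used here do not give the genome build, annotation, strand setting or treatment of reads that match several genes. A row without a symbol, at most 9e-05% of a library, was left out. Whole reads were recovered from the CPM steps (100.0% of values within 0.1 read of a whole number) and served for depth, floors and the voom alternative. Depth was 18602612 to 42217764 reads, and floors of 3 reads cover counting error only.

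Genes at 5 CPM or more in at least 3 libraries were tested, 6814 in all, with limma 3.58.1 in R 4.3.3 (linear model on log2(CPM + 1), empirical Bayes with a variance trend, adult minus development). P-values were adjusted by Benjamini-Hochberg over all genes tested, with a threshold of 0.05. Fold changes on this scale understate the change of low genes. The script was tested on simulated data. Exonic lengths, overlaps and coordinates come from Ensembl release 115 (BDGP6.54), in which 14080 of 14138 genes were matched; levels per length are CPM per kb of merged exons. Calculations used Python 3.11.15.

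The members, gene lists and tests were chosen with earlier results of these data known. Values in every library are given for the nuclear core, for the 6 largest and 6 smallest fold changes, for members lower in adult and for paralogs with reads; of other lists, the largest and smallest fold change, and of marker lists the most abundant gene. The genes crc, mtTFB2, Ets97D, further markers of projection neurons and of other cells, ND-18, ND-B14, ND-15, ND-39, ND-MWFE, ND-B8, NP15.6, repo and several assembly factors are given as well, some of them chosen after their values were seen. Alternatives covered the pseudocount, filter, scaling, replicate block, variance model, library weights, a minimum fold and each library left out. ND-MNLL, ND-20L and ND-24L were not analysed here. With 3 libraries against 3, no exact permutation test of a single value can fall below 0.05, so none was used.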

Additional observations from a re-analysis of the deposited data

How the results depend on the processing

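Of the 26 members higher in adult, 23 kept that call in every alternative other than the minimum fold; no called direction reversed. The number higher was 23 with no filter or no variance trend, 28 with median of ratios scaling, 20 when a change of at least 1.5-fold was required, and 23 to 26 with a library left out. The number lower, 2, was 0 with no filter, median of ratios scaling, quantile normalization, no variance trend or the 1.5-fold requirement, and 0 to 2 with a library left out. For the mitochondrially encoded genes, the number higher (2) was 0 with no filter, 1 with voom, and 0 to 2 with a library left out. For complexes II to V, the number higher (23) was 14 with the 1.5-fold requirement, and the number lower (0) was 1 with no filter, 2 with quantile normalization, 2 with array weights and 0 to 3 with a library left out, 3 being without development replicate 1. The summed share in adult (1.28%) was 1.35% with median of ratios scaling and 1.11% without ND-51; in development (0.765%) it was 0.706% without ND-51. Where no value shows the cause of these changes, the cause was not tested. The labels state no pairing of libraries by replicate number. Deviations of same-numbered libraries correlated at -0.03, 0.04 and -0.01, which cannot show whether libraries were collected or processed in pairs. With the replicate number as a block 25 members were higher and 2 lower. Few reads limit the comparison of adult with development for ND-B8, the paralogs and mt:ND4L.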
